A study of Homo sapiens with 24 samples.

Results

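ZFX is an X-linked zinc finger transcription factor that binds near the start sites of many active genes, often in CpG islands, and acts mainly as an activator. ZNF711 is its close paralog. In glioma and other cancers ZFX is known for supporting the growth and self-renewal of tumour cells. The comparison described here asked which transcripts changed when ZFX was lowered by siRNA in LN-229, an established human glioblastoma cell line.

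The comparison holds 6 of the 24 libraries of the series, chosen by their titles: 3 LN-229 libraries that received the siRNA against ZFX (siZFX) and 3 that received a control siRNA (siControl). A further control set of 3 libraries, titled siControl_2, was kept apart from these. All LN-229 cells carry the genotype label wild type, were grown in DMEM with serum, and are labelled alike apart from the siRNA. The labels give neither the siRNA sequence nor the time between transfection and harvest, so a response to ZFX loss cannot be told apart from any other action of the same siRNA. For comparison, 2 other pairs of groups were used that share no library with this one. They are LN-229 cells with siRNAs against both ZFX and ZNF593 (the double knockdown) against siControl_2, and 293T embryonic kidney cells labelled as a knockout of ZFX and ZNF711 (DKO) that received FLAG-tagged wild-type ZFX (wtZFX) or the empty vector pCMV6. Whether the 3 libraries of a group stem from separate cultures is not stated, and p-values therefore reflect only how far these libraries differ, which can be technical variation.

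Depth in the siControl and siZFX libraries was between 22246299 and 30159260 gene-assigned reads. Correlations of log CPM (read counts scaled to a common library total) between replicates across genes ran from 0.988 to 0.990, and genes are not independent replicates. The 10 markers listed for a glioblastoma line were all above 1 CPM, and their summed level was 12647 to 12920 CPM in siControl and 12841 to 13309 CPM in siZFX. Among them SOX10 (-0.90 log2), NES (-0.43), SOX2 (-0.37) and TNC (-0.37) were lower and CAV1 (0.61) and FN1 (0.34) higher with siZFX. NES (-0.02) and SOX2 (-0.19) were not called against siControl_2, and the SOX2 call was also lost on leaving out any of 4 of the 6 libraries. Summed levels were higher with siZFX for 6 neuron markers (103 to 105 CPM in siControl and 137 to 147 CPM in siZFX), 6 astrocyte markers (37.5 to 39.7 and 49.0 to 58.2 CPM) and 5 epithelial markers (68.4 to 74.6 and 86.7 to 99.9 CPM). The neuron markers moved apart: SNAP25 (0.83 log2) and SYT1 (0.61) were higher and GAD1 (-0.37) and the low RBFOX3 (-1.77) lower. SYP and SLC17A7 were not called. Of the astrocyte markers 3 stayed under 1 CPM, as did 3 epithelial ones. GJA1 (33.7 to 34.7 CPM in siControl) and KRT18 (58.1 to 61.5 CPM) made up most of these 2 sums. Of 7 markers of microglia and macrophages 6 stayed under 1 CPM, as did all 5 of T cells, with AIF1, TYROBP, CD3D and CD2 at 0 in every library. The astrocyte gene GFAP was between 1.82 and 2.98 CPM in siControl and between 5.75 and 8.03 CPM in siZFX (levels over plain totals). Mitochondrial transcripts took 3.19% to 3.60% of gene counts in siControl, 4.45% to 4.60% in siZFX and 4.32% to 5.01% in siControl_2, and the part of these differences in the results below was not tested.

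ZFX itself (chrX:24149173-24216255, + strand, GRCh38) was checked first. It stood at 55.2, 50.8 and 45.7 CPM in the siControl libraries and at 12.7, 15.7 and 19.7 CPM in the siZFX libraries. The groups did not overlap, and ZFX fell 3.16-fold (log2 change -1.66, SE 0.13, adjusted p = 1.1e-09). Counts at a gene do not show how much ZFX protein was left. ZNF711, the paralog, had too few counts in LN-229 to be tested.

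Of 17684 genes tested, 2439 were higher (13.8%) and 3025 lower (17.1%) with siZFX at an adjusted p of 0.05. Falls were the larger group, and their share rose with the size of the change. At 1.5-fold or more, 839 genes were higher (4.74%) and 1603 lower (9.06%), so that 65.6% of these calls were falls. At 4-fold or more, 39 genes were higher and 181 lower, and at 8-fold or more 8 were higher and 42 lower. The median log2 change over all tested genes was 0.02, a value that the scaling itself keeps near 0. The 3 CPM of one group lay wholly above or below those of the other for 9165 of the tested genes (51.8%), so separate groups are common and are a description of the genes named below. The excess of falls among all calls was not seen with offsets for GC content and length, where 3672 genes were higher and 3135 lower. What in these offsets made the difference was not tested.

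**Figure D1:**
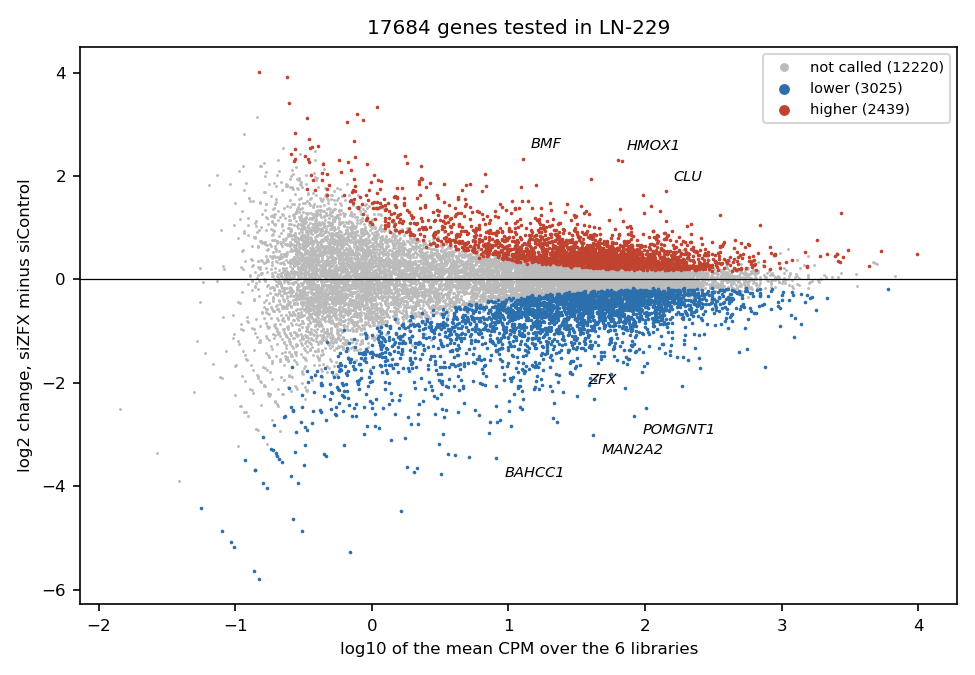
Log2 change with siZFX (y axis, siZFX minus siControl) against the log10 of the mean CPM over the 6 libraries (x axis) for the 17684 tested genes, with blue points for the 3025 lower genes, red for the 2439 higher genes and grey for genes not called. The blue points reach further from 0 than the red ones at middle and high expression, where MAN2A2 and POMGNT1 fell and HMOX1, BMF and CLU rose.

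The largest falls among well-expressed protein-coding genes took transcripts down to a small share of their control level. The rule took the 15 largest called changes in each direction with a mean of at least 5 CPM and groups that do not overlap, and the falls were BAHCC1, CEP112, MAN2A2, GNAZ, NPDC1, FBXO44, ZNF319, DPYSL4, NACAD, SMO, POMGNT1, CYFIP2, EBF3, ALDH5A1 and HSPB8, which fell between 5.69-fold (HSPB8) and 11-fold (BAHCC1). They encode proteins of unlike function: chromatin and transcription factors, Golgi enzymes, signalling proteins, a centrosomal protein and a small heat shock protein. Of the 31 genes named as ZFX, leading falls or leading rises, 16 share some exonic bases with another gene, at most 26.4% of their exons, and reads in a shared stretch cannot be assigned without strand.

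BAHCC1, a nuclear protein with a chromatin-binding BAH domain, stood at 14.6, 14.5 and 15.4 CPM in siControl and 0.974, 1.99 and 1.08 CPM in siZFX (log2 change -3.46, SE 0.23, adjusted p = 1.1e-10). CEP112, a centrosomal coiled-coil protein, went from 9.53, 9.01 and 9.66 CPM to 0.62, 0.648 and 1.3 CPM (log2 change -3.44, SE 0.34, adjusted p = 4.0e-07). Both were between 0.62 and 1.99 CPM in the siZFX libraries and at 9.01 CPM or more in every siControl library. The transcription factor EBF3, of the early B cell factor family that acts in neural development, was at 19, 18 and 15 CPM in siControl and 3.67, 2.36 and 2.82 CPM in siZFX (log2 change -2.55, SE 0.17, adjusted p = 1.3e-10). ZNF319, a zinc finger protein, was at 13.9, 14.6 and 14.5 CPM against 2.3, 2.18 and 1.86 CPM (log2 change -2.76, SE 0.19, adjusted p = 1.3e-10). As the rule asked, the highest siZFX library lay below the lowest siControl library for each of these genes.

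A pair of glycosylation enzymes fell from high levels. MAN2A2, a Golgi alpha-mannosidase that trims N-glycans, stood at 77.2, 71.4 and 73 CPM in siControl and 9.39, 9.58 and 8.63 CPM in siZFX (log2 change -3.01, SE 0.10, adjusted p = 2.8e-15). POMGNT1, which extends O-mannosyl glycans on alpha-dystroglycan, went from 138, 154 and 138 CPM to 24.3, 22.2 and 22.9 CPM (log2 change -2.63, SE 0.10, adjusted p = 7.3e-15). Their 3 siZFX libraries lay within a narrow range, and the ranges were far apart. POMGNT1 shares 16.2% of its exonic bases with LURAP1.

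SMO, the membrane protein that carries the Hedgehog signal into the cell, was at 35.3, 38.1 and 36.2 CPM in siControl and 4.83, 6.62 and 5.59 CPM in siZFX (log2 change -2.69, SE 0.13, adjusted p = 6.2e-13). DPYSL4, a collapsin response mediator protein of the neuronal cytoskeleton, was at 40.8, 36.7 and 40.7 CPM against 5.84, 6.11 and 5.51 CPM (log2 change -2.76, SE 0.15, adjusted p = 2.6e-12). GNAZ, a G protein alpha subunit, went from 12.7, 12.5 and 13.2 CPM to 1.28, 1.67 and 1.91 CPM (log2 change -2.98, SE 0.23, adjusted p = 7.3e-10). Each of these was lower in every siZFX library than in every siControl library, which the rule required. CYFIP2, part of the WAVE complex that steers actin assembly, fell 6.16-fold from 9.82, 10.8 and 10.6 CPM to 1.73, 1.85 and 1.47 CPM. ALDH5A1, the mitochondrial enzyme that clears succinic semialdehyde in GABA breakdown, fell 5.74-fold from 10.4, 8.42 and 10.3 CPM to 1.2, 2.36 and 1.52 CPM. HSPB8, a small heat shock protein, was at 20.3, 22.6 and 21 CPM in siControl and 4.29, 3.47 and 3.43 CPM in siZFX. The groups were separate for these genes as well, as the rule asked. The other leading falls, NPDC1, FBXO44 (a substrate-binding F-box protein) and NACAD, had siControl levels between 12 and 21.4 CPM and siZFX levels between 1.56 and 2.73 CPM.

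The largest rises were smaller, from 2.8-fold (COLEC12) to 5.04-fold (BMF). The rule gave BMF, HMOX1, PGM2L1, HIC1, MGP, CCDC33, METTL7A, MYH15, ANGPTL4, SAMD11, CLU, SCG2, CGN, AKNA and COLEC12. BMF, a pro-apoptotic BH3-only protein, was at 3.98, 4.57 and 4.01 CPM in siControl and 21.1, 22.4 and 19.9 CPM in siZFX (log2 change 2.33, SE 0.14, adjusted p = 2.8e-11). HMOX1, heme oxygenase 1, was at 20.3, 22.3 and 21.6 CPM against 109, 111 and 98.7 CPM (log2 change 2.31, SE 0.12, adjusted p = 1.3e-12). PGM2L1, which makes the glucose 1,6-bisphosphate that phosphoglucomutases need, went from 21.4, 23.4 and 24.6 CPM to 113, 114 and 112 CPM (log2 change 2.29, SE 0.10, adjusted p = 7.5e-14). All 3 were several times higher in each siZFX library than in any siControl library.

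MGP, the matrix Gla protein that inhibits calcification, stood at 14.3, 17.6 and 18.1 CPM in siControl and 66.5, 68.4 and 57.5 CPM in siZFX (log2 change 1.94, SE 0.16, adjusted p = 2.4e-08). CLU, the extracellular chaperone clusterin, was at 63.1, 71.4 and 64.4 CPM against 213, 241 and 195 CPM (log2 change 1.7, SE 0.08, adjusted p = 5.4e-13). SCG2, a granin of secretory granules, went from 47.3, 47.1 and 46.1 CPM to 139, 159 and 139 CPM (log2 change 1.63, SE 0.08, adjusted p = 5.2e-13). SCG2 and CLU had the smallest SEs of the 15 leading rises. ANGPTL4, a secreted inhibitor of lipoprotein lipase, was at 5.77, 5.6 and 5.22 CPM in siControl and 21.7, 19.4 and 16.2 CPM in siZFX (log2 change 1.79, SE 0.20, adjusted p = 2.2e-07). CGN, the tight junction protein cingulin, was at 7.12, 6.29 and 8.19 CPM against 21.3, 19.3 and 21.1 CPM (log2 change 1.52, SE 0.12, adjusted p = 2.3e-09). HIC1, a transcriptional repressor with tumour suppressor activity, was at 2.01, 2.78 and 3.06 CPM against 11.6, 11.4 and 9.32 CPM, and 26.4% of its exonic bases are shared with SMG6. HIC1, SAMD11, MYH15 and CCDC33 were all under 4 CPM in every siControl library, which makes their folds less exact (SE 0.24 to 0.35 on the log2 scale).

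**Figure D2:**
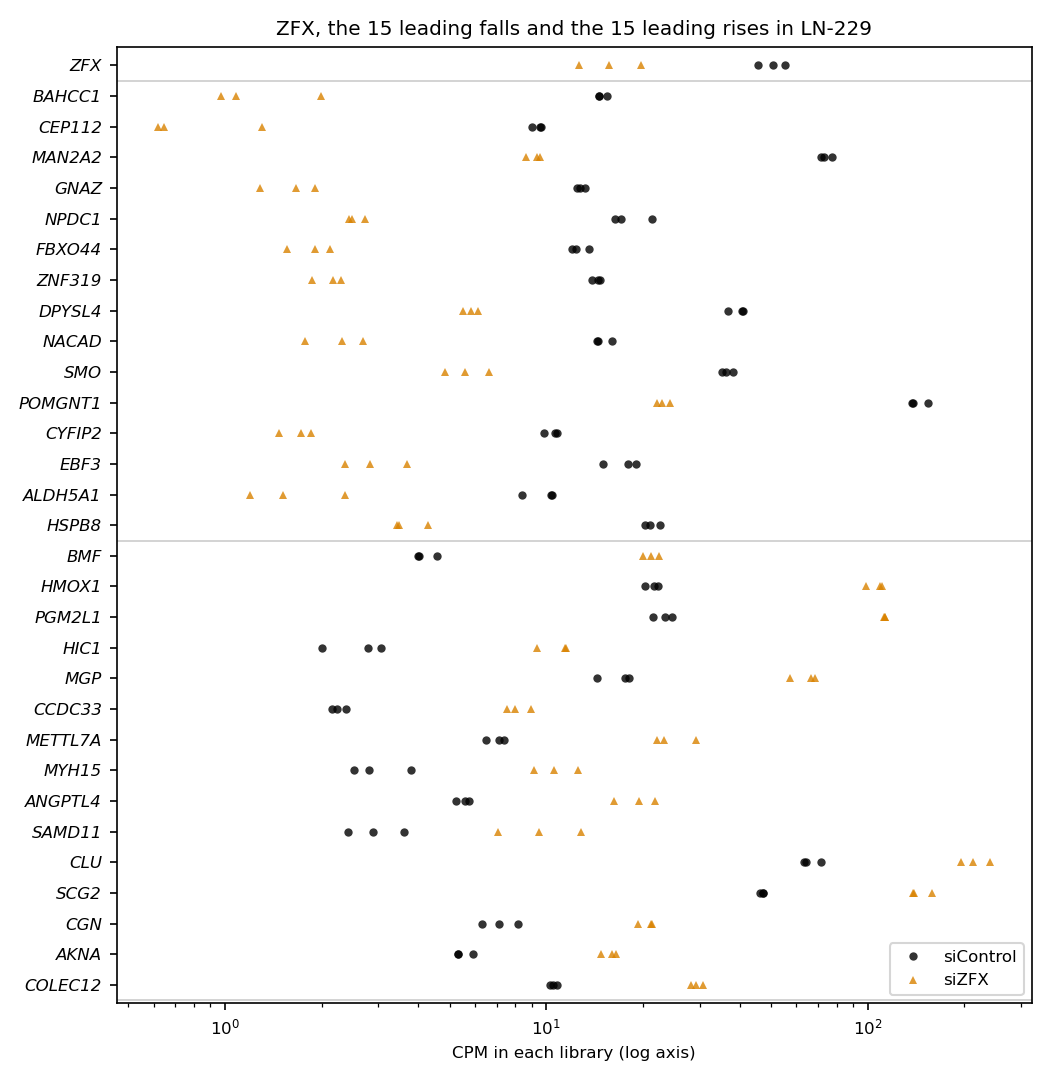
CPM on a log axis (x axis) in each of the 3 siControl libraries (black circles) and 3 siZFX libraries (orange triangles) for ZFX, the 15 leading falls and the 15 leading rises (y axis). The 2 kinds of symbol do not overlap for any gene, which the rule required of the leading genes. MAN2A2 lies at 9.58 CPM or less in every siZFX library and at 71.4 CPM or more in every siControl library.

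To show what lies near the start sites of the genes that moved most, the 250 bases before the RefSeq start are printed for 4 leading falls and 2 leading rises. These genes come first in order of size among those with a RefSeq promoter entry (GRCh38.p14), with CEP112, CCDC33 and FBXO44 passed over for reasons given after the sequences. The RefSeq start of MAN2A2 lies 447 bases inside its GENCODE gene, so its printed bases lie within that gene. The sequences run 5′ to 3′ on the strand of the gene, with each CG dinucleotide in capitals. The number of CG differed between the promoters of falling and rising genes, as described after the sequences.
BAHCC1 (chr17:81395207-81395456, + strand): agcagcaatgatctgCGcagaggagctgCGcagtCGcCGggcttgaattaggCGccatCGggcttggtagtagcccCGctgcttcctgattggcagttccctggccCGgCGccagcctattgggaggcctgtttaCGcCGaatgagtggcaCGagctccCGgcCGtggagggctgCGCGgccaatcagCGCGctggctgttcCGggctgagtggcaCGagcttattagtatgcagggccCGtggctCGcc
MAN2A2 (chr15:90902415-90902664, + strand): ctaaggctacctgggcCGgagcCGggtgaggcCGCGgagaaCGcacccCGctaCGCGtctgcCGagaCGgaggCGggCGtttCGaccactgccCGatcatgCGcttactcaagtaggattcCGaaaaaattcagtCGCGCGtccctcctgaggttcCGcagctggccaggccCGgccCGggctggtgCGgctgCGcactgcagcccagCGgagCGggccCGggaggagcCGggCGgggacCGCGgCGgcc
NPDC1 (chr9:137046178-137046427, - strand): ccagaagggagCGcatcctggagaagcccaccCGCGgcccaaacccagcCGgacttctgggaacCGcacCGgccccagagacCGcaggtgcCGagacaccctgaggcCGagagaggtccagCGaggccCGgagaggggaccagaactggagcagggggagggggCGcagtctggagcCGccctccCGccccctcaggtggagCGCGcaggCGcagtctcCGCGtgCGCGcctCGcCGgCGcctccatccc
ZNF319 (chr16:58000673-58000922, - strand): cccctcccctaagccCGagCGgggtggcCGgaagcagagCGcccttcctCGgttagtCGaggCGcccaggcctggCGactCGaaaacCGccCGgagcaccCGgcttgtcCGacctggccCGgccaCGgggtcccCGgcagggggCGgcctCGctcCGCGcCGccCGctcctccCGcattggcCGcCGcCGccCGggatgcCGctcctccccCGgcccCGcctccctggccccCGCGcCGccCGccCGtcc
BMF (chr15:40108880-40109129, - strand): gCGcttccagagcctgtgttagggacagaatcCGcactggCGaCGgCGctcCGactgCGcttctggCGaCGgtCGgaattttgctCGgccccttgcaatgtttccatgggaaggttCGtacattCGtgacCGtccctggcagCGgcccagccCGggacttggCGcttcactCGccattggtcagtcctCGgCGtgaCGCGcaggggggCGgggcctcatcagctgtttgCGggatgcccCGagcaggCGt
PGM2L1 (chr11:74398434-74398683, - strand): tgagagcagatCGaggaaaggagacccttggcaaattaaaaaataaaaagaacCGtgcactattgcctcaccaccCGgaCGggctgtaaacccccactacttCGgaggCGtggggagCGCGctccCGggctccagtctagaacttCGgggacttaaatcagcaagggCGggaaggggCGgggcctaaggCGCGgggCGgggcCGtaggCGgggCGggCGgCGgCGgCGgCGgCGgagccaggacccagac
These 250 bases hold 22 CG dinucleotides for BAHCC1, 32 for MAN2A2, 24 for NPDC1, 35 for ZNF319, 26 for BMF and 24 for PGM2L1. The hexamer AGGCCT, the core of the motif known for ZFX, lies 126 bases before the start of BAHCC1 and 183 bases before that of ZNF319, and its letters do not occur in the other 4. Over the 300-base windows of all leading genes with an entry it was found in 2 of 14 falls and 2 of 9 rises (CCDC33 and ANGPTL4). The entries of CEP112 and CCDC33, which the rule for printing also took, begin at starts far inside the GENCODE genes and are not shown. Their 250 bases hold 1 and 4 CG dinucleotides, so the printed sequences leave out the CG-poorest entries. GNAZ, HMOX1, HIC1, MGP, METTL7A, CLU and SCG2 had no entry, and the window of FBXO44 also holds the start of FBXO2.

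Promoter windows of 300 bases (250 before and 50 after the start) were found by symbol for 10966 of 13532 tested protein-coding genes. Their median number of CpG dinucleotides was 26 over all tested genes, 29.5 over the 1120 genes lower by at least 1.5-fold and 20 over the 575 genes higher by at least 1.5-fold. When genes were ordered into 4 groups of like size by that number, the share called lower was 17.5%, 16.1%, 22.2% and 27.5% from the CpG-poorest to the CpG-richest group. The share called higher went the other way, from 19.5% and 19.2% to 16.7% and 13.7%. With offsets for GC content and length the share called lower was 17.9% in the poorest and 28.6% in the richest group, and the share called higher was 26.0% and 22.8%. Against siControl_2 the shares called lower in these groups were 22.2% and 29.4%. These shares are descriptions without a test, since genes are not replicates.

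**Figure D3:**
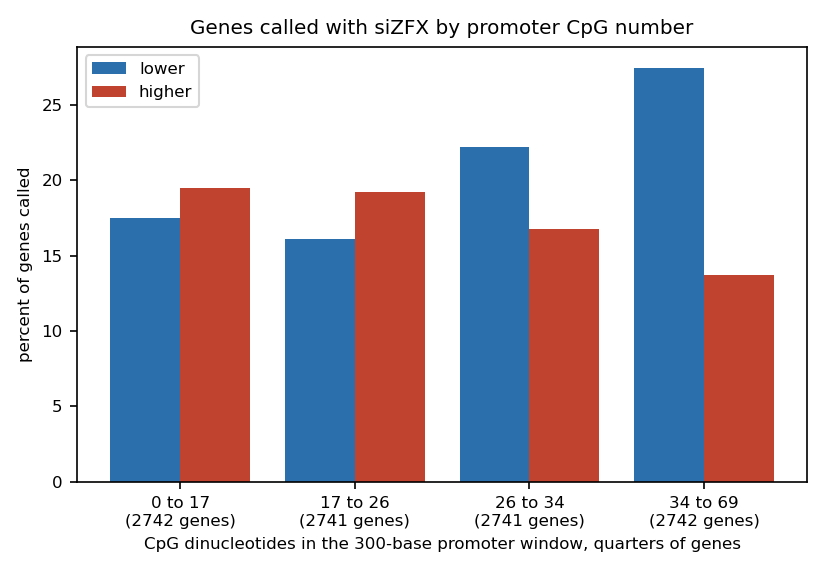
Percent of genes called lower (blue) and higher (red) with siZFX (y axis) in 4 groups of the 10966 protein-coding genes by the number of CpG dinucleotides in the 300-base promoter window (x axis). The share called lower is 27.5% in the CpG-richest group against 17.5% in the poorest, and the share called higher is 13.7% against 19.5%.

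The letters AGGCCT, which read the same on both strands, were found in 10.8% of all promoters, in 10.8% of those of all lower genes and in 9.55% of those of all higher genes. The shares were 11.5% for genes lower by at least 1.5-fold, 8.24% for the 85 genes lower by at least 4-fold and 9.04% for genes higher by at least 1.5-fold. Within the first 500 bases of the longest protein-coding transcript the shares were 17.3% for all genes, 19.3% for the 1.5-fold lower and 14.6% for the 1.5-fold higher set, an alternative chosen after seeing the data. Reference palindromes of the same base composition were counted for the same 3 sets. ACCGGT had the same order of shares, 2.31%, 2.95% and 1.57% in promoters and 3.53%, 3.91% and 2.20% in transcripts. TGGCCA was at 9.85%, 9.82% and 8.70% in promoters and 21.8%, 22.2% and 25.4% in transcripts. In promoters of the 85 genes lower by at least 4-fold TGGCCA was at 18.8%. Genes with 2 or more AGGCCT in the promoter numbered 78, of which 18 were lower (23.1%) and 15 higher (19.2%), against 20.8% and 17.5% of the genes with none. The letters TGANTCA (either strand), the form bound by AP-1 proteins, occurred in 4.61% of all promoters, 4.11% of the 1.5-fold lower and 6.96% of the 1.5-fold higher set. For TGACNNNGC, the NRF2 element, these shares were 14.8%, 13.3% and 12.7%, and for the E-box CACGTG 9.79%, 7.41% and 8.17%. The median GC content of the promoters was 65%, 68.8% and 62.7%, and its part in these shares was not tested. A match is a description of letters and says nothing of binding.

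The leading falls were also lower where ZFX was lowered together with ZNF593 and higher where ZFX was added to DKO cells. In the double knockdown, which used siRNAs of the same names against ZFX and ZNF593, ZFX changed by -1.01 on the log2 scale, and all 15 leading falls were lower than in siControl_2, where 20.6% of all tested genes were lower and 17.6% higher. In DKO cells that received wild-type ZFX, all 15 were higher than with the empty vector, where 22.6% of the genes tested in both lines were higher and 21.6% lower. ZFX itself was counted at a mean of 224 CPM (SD 10.2, n = 3) in the empty-vector libraries labelled as its knockout, above the 50.5 CPM of siControl in LN-229, and at 15534 CPM with wtZFX (the lines were scaled separately). The labels do not say which part of the gene was altered, so these counts do not check the knockout, and the comparison is one of much ZFX transcript against less. Library 3 of the double knockdown stands apart from the other 2 (correlation 0.970 with each, against 0.986 between them), and without it all 15 leading falls were again lower. The double knockdown also targets ZNF593, and the part of that in its values was not tested.

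**Figure D4:**
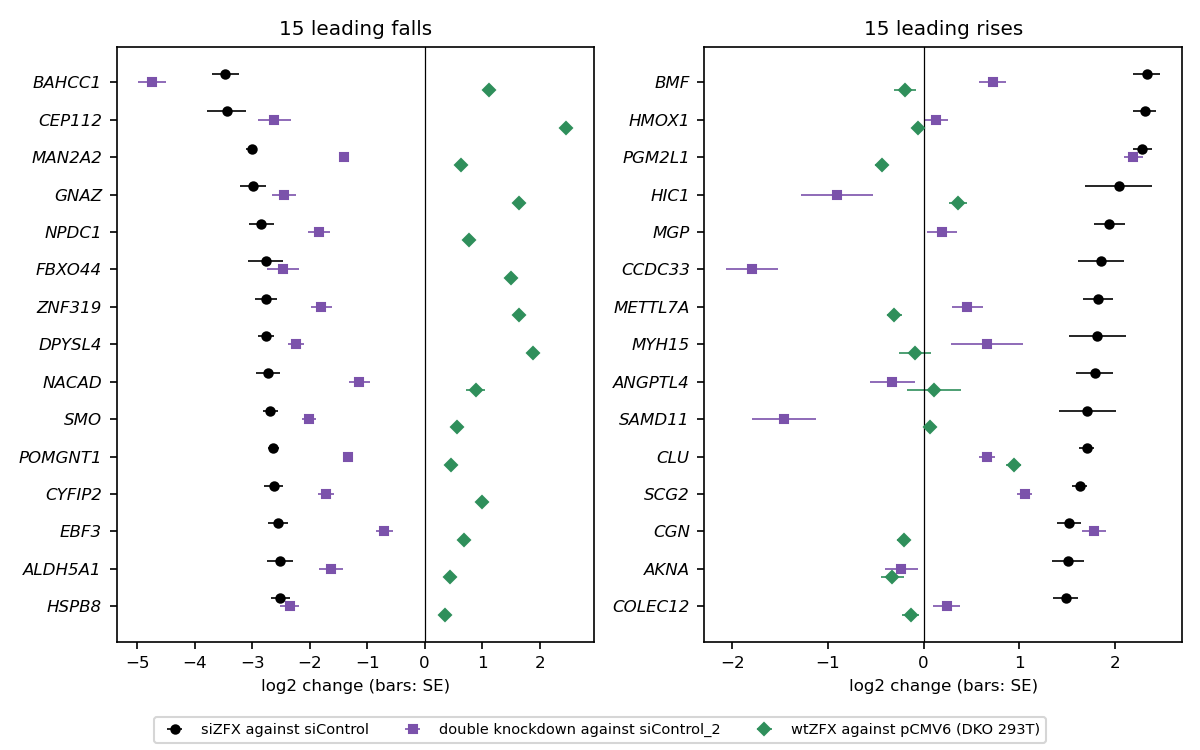
Log2 change (x axis, bars show the SE) of the 15 leading falls (left) and 15 leading rises (right) in siZFX against siControl (black circles), the double knockdown against siControl_2 (purple squares) and wtZFX against pCMV6 in DKO cells (green diamonds). All 15 falls lie below 0 in the double knockdown and above 0 with wtZFX, whereas the rises scatter on both sides of 0. MGP, CCDC33 and SCG2 were not tested in DKO cells and have no diamond.

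BAHCC1 fell in the double knockdown (-4.74 log2, SE 0.24) and rose with wtZFX (1.12, SE 0.06). CEP112 changed by -2.61 (SE 0.29) and 2.46 (SE 0.11) in these comparisons. DPYSL4 changed by -2.24 (SE 0.14) and 1.89 (SE 0.07). In DKO cells CEP112 had a mean of 4.11 CPM with the empty vector and 22.7 CPM with wtZFX. MAN2A2 changed by -1.4 and 0.62, SMO by -2.0 and 0.56, and HSPB8 by -2.35 and 0.35. The range over the 15 was -4.74 to -0.70 in the double knockdown and 0.35 to 2.46 with wtZFX.

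The leading rises were not mirrored in this way. In the double knockdown 6 of 15 were higher, 2 lower and 7 not called, and with wtZFX 4 of the 12 tested were lower, 2 higher and 6 not called. PGM2L1 rose in the double knockdown as well (2.2, SE 0.10) and fell with wtZFX (-0.44, SE 0.07). CGN rose there (1.78) and fell with wtZFX (-0.21). HMOX1 changed by 0.14 (SE 0.12, adjusted p = 0.401) in the double knockdown and by -0.05 (SE 0.07, adjusted p = 0.532) with wtZFX. CCDC33 and SAMD11 were lower in the double knockdown (-1.79 and -1.46), against their rise with siZFX alone. With the 2 stranded columns summed in place of the unstranded one, SAMD11 was not called (0.41 log2). CLU rose with both treatments, by 0.67 in the double knockdown and by 0.94 with wtZFX.

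Over all genes, 1751 of the 3025 genes lower with siZFX (57.9%) were lower in the double knockdown, which is 48.2% of its falls, and 203 were higher. Of the 2439 genes higher with siZFX, 1198 (49.1%) were higher there, which is 38.4% of its rises, and 203 were lower. Without library 3 of the double knockdown these shares were 59.6% for lower and 51.1% for higher genes. In DKO cells, 1397 of the 2841 lower genes tested in both lines (49.2%) rose with wtZFX, which is 38.6% of its rises, and 281 fell. Of the 2313 higher genes tested in both, 992 (42.9%) fell with wtZFX, which is 28.7% of its falls, and 280 rose. At 1.5-fold or more in both comparisons, 439 of 1443 lower genes (30.4%) rose with wtZFX and 9 (0.62%) fell, where 9.05% of the genes tested in both lines rose and 2.34% fell. Of 741 higher genes at that size, 48 (6.48%) fell with wtZFX and 63 (8.5%) rose.

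Of 38 lists of genes with a shared function, those with most to show are described below, each by its counts beside those of all tested genes (13.8% higher, 17.1% lower, median 0.02). List counts against siControl_2 have another background: 3169 of the 17684 tested genes were higher and 3542 lower there, against 2439 and 3025 with siControl. In the double knockdown 17.6% of all tested genes were higher and 20.6% lower. With wtZFX 22.6% of the genes tested in both lines were higher and 21.6% lower. List counts near these shares say nothing particular about a list. Up to 6 members of a list are named for the size of their change. Others, such as those given as not called or with a small fold, were chosen after their values were seen, for their role. The spread is estimated over all 15 LN-229 libraries, and leaving library 3 of the double knockdown out of the fit, chosen after seeing the data, moved 18 of the 76 list counts by over 1.5 times, all upwards. Leaving out 1 of the 6 compared libraries moved 5 to 12 of them. More moved with siControl_2 as the control (31) and with only the 6 libraries in the fit (29). Offsets for GC content and length moved 18, and all 6 control libraries 16. Counts above 3 that moved on leaving out a library are given with their list where it is described. In bulk RNA, fewer cells of a state and less RNA per cell cannot be told apart.

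**Figure D5:**
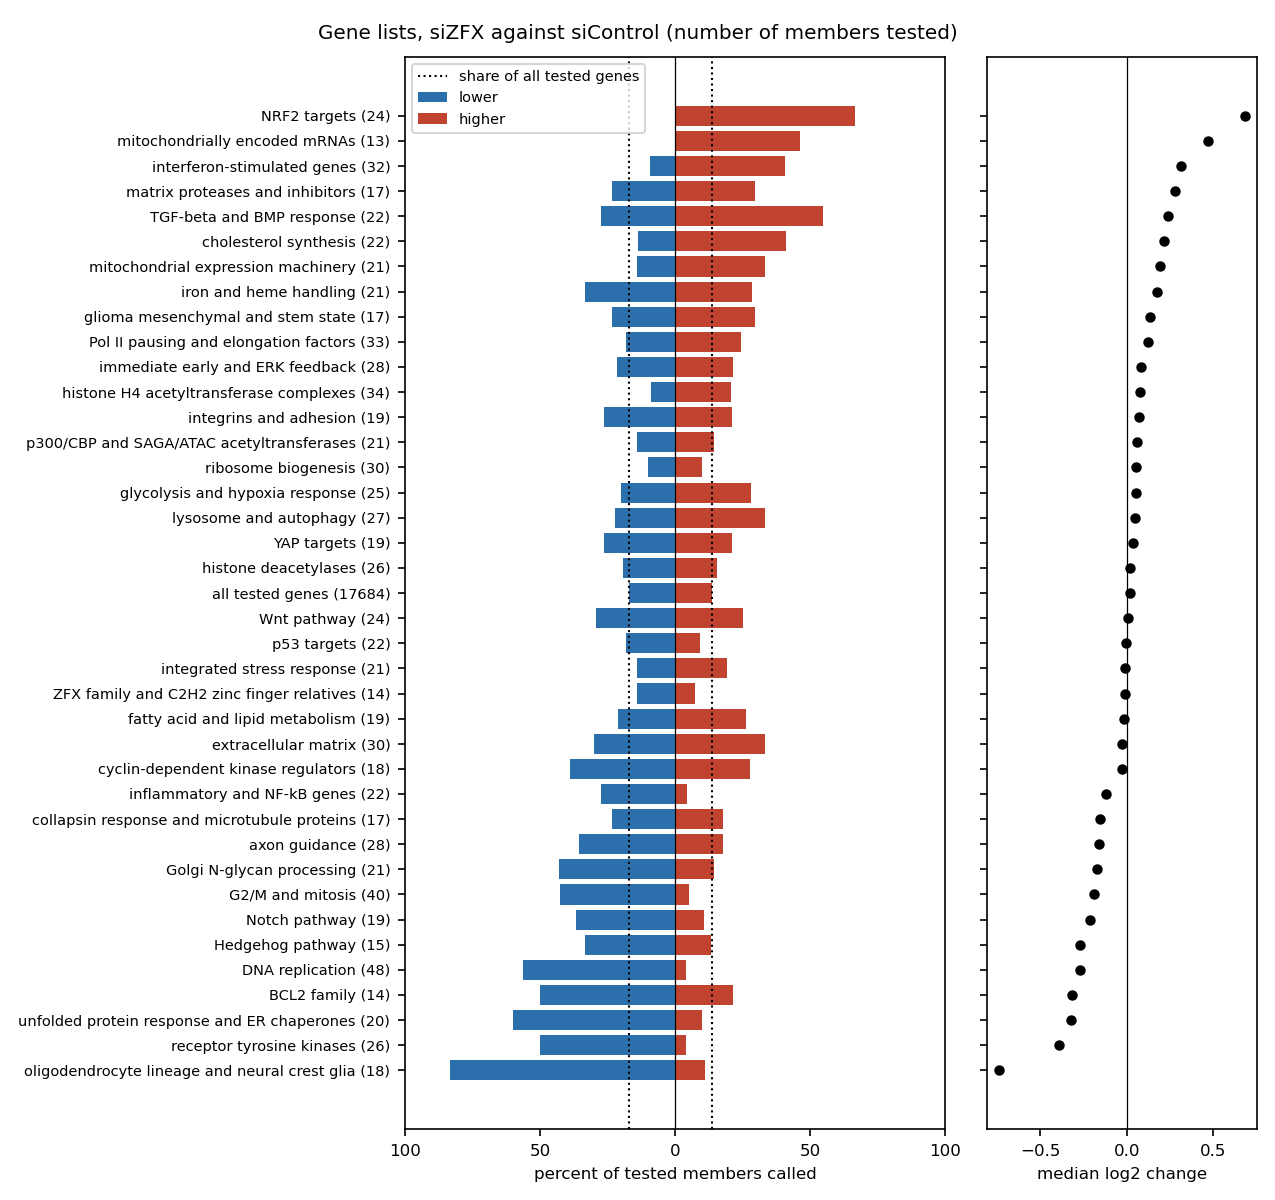
For each of 38 gene lists and for all tested genes (y axis, with the number of members tested), the left panel gives the percent of members called lower (blue, to the left) and higher (red, to the right), with dotted lines at 17.1% and 13.8% for all tested genes, and the right panel the median log2 change. NRF2 targets lie at the top with a median of 0.68 and oligodendrocyte lineage genes at the bottom with -0.74.

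Of the NRF2 targets, the enzymes and transporters of the antioxidant response, 16 of 24 were higher and 0 lower (median log2 change 0.68). HMOX1 led them, and the drug transporter ABCC3 stood at 72.2, 69.4 and 76.5 CPM in siControl and 174, 195 and 179 CPM in siZFX (log2 change 1.33, SE 0.09, adjusted p = 1.3e-10). EPHX1, an epoxide hydrolase, was at 139, 147 and 136 CPM against 286, 305 and 292 CPM (log2 change 1.07, SE 0.07, adjusted p = 1.7e-10). FTL, the light chain of the iron store ferritin, went from 1574, 1672 and 1487 CPM to 4010.1, 3826 and 3764 CPM (log2 change 1.29, SE 0.08, adjusted p = 2.8e-11). The groups were well apart for each. FTH1, the heavy chain, was at 454, 383 and 510.1 CPM against 1013, 989 and 785 CPM (log2 change 1.05, SE 0.32, adjusted p = 0.0299), but 56.6% of its exonic bases are shared with BEST1, and ferritin genes have many near-identical pseudogenes, so these counts are uncertain. Its call was lost on leaving out any of 5 of the 6 libraries. The glutathione synthesis gene GCLM and the thioredoxin reductase gene TXNRD1 rose 1.69-fold and 1.62-fold, while the cystine carrier gene SLC7A11 changed by 0.09 (adjusted p = 0.481). SLC7A11 was called higher with siControl_2 as the control (0.86 log2). Against siControl_2, 20 of 24 were higher and 0 lower. In the double knockdown 5 were higher and 7 lower, and with wtZFX 9 of 20 tested were higher and 2 lower.

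Iron and heme genes moved in both directions, with 6 of 21 higher and 7 lower. The number higher was 3 without siControl library 3 and 10 without library 3 of the double knockdown. The rises included heme oxygenase and ferritin (HMOX1, FTL, FTH1) and ALAS1, which starts heme synthesis (0.49 log2). BLVRA, the biliverdin reductase that acts just after heme oxygenase, fell instead: it was at 46.1, 47.5 and 42.5 CPM in siControl and 11.8, 13.4 and 12.9 CPM in siZFX (log2 change -1.84, SE 0.11, adjusted p = 2.6e-11). FECH, the ferrochelatase that inserts iron into heme, was at 30.0, 30.3 and 29.8 CPM against 14.8, 16.1 and 13.7 CPM (log2 change -1.01, SE 0.12, adjusted p = 7.0e-07), and UROD, an earlier enzyme of heme synthesis, was at 89.6, 93.3 and 83.7 CPM against 49.2, 54 and 49.6 CPM (log2 change -0.80, SE 0.08, adjusted p = 4.1e-08). None of these groups overlapped. BLVRA also fell in the double knockdown (-1.88, SE 0.11) and rose with wtZFX (0.70, SE 0.08). The transferrin receptor gene TFRC changed by 0.18 (adjusted p = 0.0769). It was called higher against siControl_2 (0.41 log2) and with only the 6 libraries (0.17 log2).

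In the BCL2 family, which sets the threshold for mitochondrial apoptosis, 3 of 14 tested members were higher and 7 lower (median -0.32). The 3 rises, BMF, BBC3 and BCL2L11, all encode BH3-only death activators, of which BCL2L11 was 0.09 and not called against siControl_2. The falls took in both sides: the effector BAK1 stood at 26.1, 27.1 and 24.1 CPM in siControl and 12.8, 12.3 and 12.1 CPM in siZFX (log2 change -1.06, SE 0.15, adjusted p = 9.1e-06), and the survival gene BCL2A1 at 10.4, 10.5 and 9.1 CPM against 2.92, 3.52 and 2.95 CPM (log2 change -1.68, SE 0.16, adjusted p = 3.5e-08). BCL2 itself was at 26.6, 28.1 and 24.7 CPM against 12.6, 16.4 and 16.1 CPM (log2 change -0.82, SE 0.12, adjusted p = 9.9e-06). Values for BBC3 were 4.96, 3.92 and 5.04 CPM in siControl and 10.2, 9.17 and 10.1 CPM in siZFX (log2 change 1.08, SE 0.38, adjusted p = 0.0413), and the call was lost when any of the 6 libraries was left out or with siControl_2 as the control. MCL1 fell 1.19-fold, and BCL2L1 changed by -0.05 (adjusted p = 0.875). BAK1 was lower in the double knockdown as well (-1.36, SE 0.15). Against siControl_2, 1 member was higher and 6 lower.

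Of 15 Hedgehog pathway genes 5 were lower and 2 higher (median -0.27). Beside SMO, the co-receptor gene BOC stood at 3.58, 3.92 and 3.19 CPM in siControl and 1.59, 1.99 and 1.34 CPM in siZFX (log2 change -1.12, SE 0.25, adjusted p = 0.00108). PTCH1, the receptor and a transcriptional target of the pathway, was at 106, 106 and 104 CPM against 56.3, 59 and 60.4 CPM (log2 change -0.85, SE 0.08, adjusted p = 5.4e-08), and HHIP, a ligand-binding inhibitor that is also a target, at 15.3, 13.6 and 15.7 CPM against 5.09, 4.35 and 4.42 CPM (log2 change -1.68, SE 0.17, adjusted p = 7.1e-08). The groups were apart in each case, but HHIP was not called against siControl_2 (-0.39 log2). GLI1, a transcription factor and target of the pathway, changed by 0.36 (adjusted p = 0.201) from 5.66, 6.29 and 6.17 CPM to 8.72, 7.87 and 6.72 CPM. It was called higher with only the 6 libraries (0.35 log2) and with GC and length offsets (0.48 log2). In the double knockdown 7 of 15 were lower and 0 higher.

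Genes of the oligodendrocyte lineage and neural crest glia had the highest share of falls of the 38 lists: 15 of 18 were lower and 2 higher (median -0.74). SOX10, a transcription factor of these lineages, stood at 1293, 1259.7 and 1273 CPM in siControl and 718, 648 and 683 CPM in siZFX (log2 change -0.90, SE 0.09, adjusted p = 7.2e-08). CSPG4, the NG2 proteoglycan of glial progenitors, went from 309, 297 and 296 CPM to 70.3, 73.2 and 72.5 CPM (log2 change -2.06, SE 0.15, adjusted p = 8.4e-08). ERBB3, a neuregulin receptor, was at 549, 529 and 505 CPM against 268, 279 and 281 CPM (log2 change -0.93, SE 0.06, adjusted p = 1.2e-10). All 3 were lower in every siZFX library. MYRF, a myelin regulator, was at 14.1, 11 and 13.4 CPM against 5.22, 5.23 and 4.94 CPM (log2 change -1.32, SE 0.15, adjusted p = 5.9e-07). OLIG2 was at 20.0, 22.9 and 20.0 CPM in siControl and 10.7, 12 and 11.5 CPM in siZFX. The 2 rises were BCAN and CNTN1, and BCAN was not called against siControl_2 (0.41 log2). In the double knockdown 6 of 18 were lower and 4 higher: CSPG4 fell (-1.88) and SOX10 fell (-0.53), but MYRF (1.24) rose. The glial marker GFAP rose with siZFX, as given above, and its part in these values was not tested.

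Of receptor tyrosine kinase genes 13 of 26 were lower and 1 higher (median -0.39). ERBB2 stood at 149.7, 156 and 152 CPM in siControl and 75.5, 71.2 and 78.1 CPM in siZFX (log2 change -1.02, SE 0.11, adjusted p = 4.8e-07). TYRO3, of the TAM receptor family, was at 76.1, 74.6 and 77.2 CPM against 34, 35.1 and 33 CPM (log2 change -1.16, SE 0.09, adjusted p = 6.1e-10), and FGFR3 at 13.4, 15.8 and 18.7 CPM against 6.11, 4.86 and 6.03 CPM (log2 change -1.49, SE 0.19, adjusted p = 1.6e-06). These groups did not overlap. INSR, the insulin receptor gene, fell 1.96-fold. EGFR fell 1.21-fold against siControl but was 0.32 higher on the log2 scale against siControl_2, and AXL and MET were not called against siControl. MET was called higher with siControl_2 as the control (0.86 log2) and with only the 6 libraries (0.15 log2). The 1 rise was KIT, the stem cell factor receptor, at 3.07, 1.68 and 1.64 CPM in siControl and 7.0, 7.96 and 7.94 CPM in siZFX (log2 change 1.83, SE 0.24, adjusted p = 2.9e-06). In the double knockdown 17 of 26 were lower and 3 higher, and with wtZFX 15 of 26 were higher and 1 lower. With siControl_2 as the control 12 were lower but 8 higher, so the near absence of rises depends on the control set.

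Genes of DNA replication were lower in 27 of 48 cases and higher in 2 (median -0.27). CCNE1, the cyclin of S-phase entry, stood at 13.1, 13.5 and 11.4 CPM in siControl and 5.14, 6.02 and 3.99 CPM in siZFX (log2 change -1.33, SE 0.20, adjusted p = 1.7e-05). E2F2, an activating E2F factor, was at 32.6, 32.7 and 33.3 CPM against 13.7, 13.5 and 14.4 CPM (log2 change -1.25, SE 0.12, adjusted p = 3.6e-08), and RFC3, a clamp loader subunit, at 95.4, 97.9 and 92.7 CPM against 48.7, 49.8 and 52.5 CPM (log2 change -0.92, SE 0.09, adjusted p = 2.2e-08). Folds were modest for most others, such as MCM3 (1.5-fold lower) and PCNA (1.21-fold lower), and RRM2, CDC6 and E2F1 were not called. E2F1 was called higher against siControl_2 (0.34 log2) and with GC and length offsets (0.23 log2). Of 40 G2/M and mitosis genes 17 were lower and 2 higher (median -0.19), with MAD2L1 at 93.1, 108 and 93.7 CPM against 58.1, 61.9 and 55.8 CPM (log2 change -0.75, SE 0.10, adjusted p = 7.1e-06). CDC25B was a rise in that list (log2 change 0.66, SE 0.07, adjusted p = 2.6e-07). Among 18 regulators of cyclin-dependent kinases, 5 higher and 7 lower, the inhibitor gene CDKN1B rose 1.56-fold, and SKP2, which encodes the ubiquitin ligase subunit that targets it, fell 1.78-fold. In DKO cells that received ZFX, replication genes were lower as well, 26 of 48 (4 higher), so this list did not change in opposite directions with opposite changes of ZFX. Against siControl_2, 16 of the 48 replication genes were lower and 7 higher, and 11 of the 40 G2/M and mitosis genes were lower and 4 higher.

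In the endoplasmic reticulum, 12 of 20 genes of the unfolded protein response and its chaperones were lower and 2 higher (median -0.33). CANX, the lectin chaperone calnexin, stood at 1429, 1520.5 and 1416 CPM in siControl and 864, 902 and 942 CPM in siZFX (log2 change -0.69, SE 0.07, adjusted p = 3.7e-08). EDEM1, which extracts misfolded glycoproteins for degradation, was at 154, 164 and 149 CPM against 92.3, 85.4 and 90.2 CPM (log2 change -0.80, SE 0.07, adjusted p = 6.6e-09). HSPA5, the main chaperone of the compartment, was at 1786, 1940.1 and 1836 CPM against 1477, 1499 and 1445 CPM (log2 change -0.33, SE 0.06, adjusted p = 2.5e-04). The falls were small but the groups were separate. CALR, the soluble partner of calnexin, changed by -0.02 (adjusted p = 0.87), and DNAJB9 rose 1.86-fold. Against siControl_2 CALR was called lower (-0.22 log2). Golgi N-glycan enzymes, with 9 of 21 lower and 3 higher (median -0.17), had a further large fall beside MAN2A2 in MAN1C1, an alpha-mannosidase that acts before it, at 5.11, 6.05 and 5.43 CPM against 0.708, 1.06 and 1.13 CPM (log2 change -2.51, SE 0.23, adjusted p = 1.4e-08). ST6GAL1, which adds terminal sialic acid, was at 28.9, 27.9 and 25.2 CPM against 9.7, 15 and 10.8 CPM (log2 change -1.21, SE 0.14, adjusted p = 4.7e-07), while the galactosyltransferase B4GALT1 rose 1.78-fold. With wtZFX 12 of these 21 glycan genes were higher and 4 lower.

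Interferon-stimulated genes were higher in 13 of 32 cases and lower in 3 (median 0.32). IRF7, which drives type I interferon genes, stood at 8.54, 9.01 and 6.81 CPM in siControl and 21.6, 22.8 and 19.6 CPM in siZFX (log2 change 1.39, SE 0.14, adjusted p = 7.4e-08), and STAT2 at 57.1, 47.4 and 54.6 CPM against 85, 88 and 90.2 CPM (log2 change 0.73, SE 0.08, adjusted p = 1.5e-07). TAP1, the antigen peptide transporter, was lower at 61, 69.6 and 65.7 CPM against 33.7, 34.3 and 36.4 CPM (log2 change -0.91, SE 0.09, adjusted p = 4.0e-08). MX1 was a fall as well (-1.09), not called without siZFX library 1. ISG15 (0.57 log2) was not called, but it was with only the 6 libraries (0.56), and it changed sign against siControl_2 (-0.087). The balance depends on the control set: with siControl_2 as the control 8 were higher and 8 lower. Without siControl library 1 or without siZFX library 1 the number higher was 8. With wtZFX 20 of 29 were higher and 1 lower, the same direction as siZFX against siControl but not against siControl_2. In the double knockdown 7 of 32 were higher and 8 lower (median -0.10).

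The same was seen for cholesterol synthesis genes, 9 of 22 higher and 3 lower with siControl as the control (median 0.21) and 3 higher and 7 lower with siControl_2. DHCR7, which makes cholesterol from its last precursor, stood at 159, 165 and 147 CPM in siControl and 227, 248 and 235 CPM in siZFX (log2 change 0.59, SE 0.09, adjusted p = 2.8e-05), and it was not called against siControl_2 (0.17 log2). Mitochondrially encoded mRNAs were higher in 6 of 13 cases and lower in 0 (median 0.47), with MT-CO1 at 8552, 7780.1 and 8137 CPM against 11144, 11877 and 11488 CPM (log2 change 0.50, SE 0.08, adjusted p = 4.9e-05), and in 2 of 13 cases with siControl_2 as the control, where MT-CO1 was -0.11 on the log2 scale. Without library 3 of the double knockdown all 13 were higher, with only the 6 libraries 12 and with DESeq2 10. The nuclear genes for mitochondrial transcription and translation were higher in 7 of 21 cases and lower in 3 (3 or 4 higher on leaving out any of the 6 libraries but siZFX library 1). TFAM, which packages mitochondrial DNA, was among the rises (log2 change 0.41, SE 0.09, adjusted p = 0.0016).

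Inflammatory and NF-kB genes were lower in 6 of 22 cases and higher in 1 (median -0.12). CXCL1 and CXCL8, neutrophil-attracting chemokines, stood at 42, 46.9 and 41.8 CPM and 33.7, 38.2 and 33 CPM in siControl and at 13.1, 12.2 and 12.7 CPM and 15.1, 12.2 and 13.4 CPM in siZFX. LIF, a cytokine of the interleukin 6 family, was at 259.9, 287 and 291 CPM against 106, 90.5 and 97.9 CPM (log2 change -1.51, SE 0.17, adjusted p = 2.2e-05), and NFKB1, a subunit of the factor itself, at 96, 102 and 97.7 CPM against 54.6, 55.5 and 54.2 CPM (log2 change -0.85, SE 0.07, adjusted p = 6.5e-09). Each of the 4 was lower in every siZFX library. Control sets differed here: CXCL1 had a mean of 141 CPM in siControl_2, and 17 of 22 genes were lower with siControl_2 as the control. Among immediate early and ERK feedback genes, 6 of 28 were higher and 6 lower (11 higher without library 3 of the double knockdown). EGR1, a serum-induced zinc finger factor, was at 221, 218 and 224 CPM in siControl and 59.9, 115 and 79.2 CPM in siZFX (log2 change -1.38, SE 0.25, adjusted p = 0.0014), with the siZFX libraries wide apart, and at a mean of 105 CPM in siControl_2, against which it was not called (-0.30 log2). EGR3 was at 26.8, 26.5 and 28.8 CPM against 9.08, 8.01 and 7.46 CPM (log2 change -1.74, SE 0.13, adjusted p = 3.9e-10). JUNB and JUND rose 1.46-fold and 1.59-fold, JUNB only with siControl as the control (0.03 log2 against siControl_2).

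In the TGF-beta and BMP response 12 of 22 genes were higher and 6 lower (median 0.24). ID2, an inhibitor of helix-loop-helix factors and a BMP target, stood at 23.3, 28.5 and 22.3 CPM in siControl and 36.7, 41.4 and 36.8 CPM in siZFX (log2 change 0.63, SE 0.11, adjusted p = 6.5e-05), and the ligand gene TGFB1 at 195, 198 and 198 CPM against 289.6, 297 and 271 CPM (log2 change 0.54, SE 0.12, adjusted p = 0.00338). INHBA, which encodes the activin A subunit, fell the most, from 106, 112 and 104 CPM to 35.3, 41.9 and 36.2 CPM (log2 change -1.5, SE 0.08, adjusted p = 1.7e-12). PMEPA1 and BAMBI, feedback inhibitors of the pathway, fell 1.69-fold and 1.59-fold, and the co-factor gene SMAD4 fell 1.52-fold. With siControl_2 as the control the counts were again 12 higher and 6 lower, and in the double knockdown 7 were higher and 10 lower (median -0.15).

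Other pathways were mixed. In the Notch pathway 7 of 19 genes were lower and 2 higher (median -0.21): DTX1, a cytoplasmic regulator of the receptor, stood at 4.74, 5.71 and 5.35 CPM in siControl and 1.37, 0.741 and 1.26 CPM in siZFX (log2 change -2.22, SE 0.26, adjusted p = 7.4e-07). MAML1, the co-activator of the Notch complex, was at 74.2, 65.7 and 73 CPM against 35.6, 35.6 and 35.3 CPM (log2 change -1.0, SE 0.09, adjusted p = 6.3e-09), and NOTCH1 at 156, 143 and 148 CPM against 93.4, 93.9 and 91.8 CPM (log2 change -0.68, SE 0.11, adjusted p = 1.3e-04). Against siControl_2, 6 Notch genes were higher and 6 lower. These 3 genes also fell in the double knockdown (-1.96, -0.65 and -0.57) and rose with wtZFX (3.13, 0.25 and 1.33). In the Wnt pathway, with 6 of 24 higher and 7 lower, the co-receptor LRP5 was at 62.4, 64.4 and 63.5 CPM against 26.5, 24.9 and 27.4 CPM (log2 change -1.27, SE 0.09, adjusted p = 4.6e-10) and the receptor FZD1 at 124, 136 and 120.1 CPM against 62.3, 61.4 and 62.1 CPM (log2 change -1.03, SE 0.07, adjusted p = 1.1e-10). AXIN1, a scaffold of the destruction complex, fell 2.1-fold, and AXIN2, a target gene, rose 1.96-fold. These 3 falls, too, were falls in the double knockdown (-0.87, -1.19 and -1.1) and rises with wtZFX (0.46, 0.47 and 0.28). Of 28 axon guidance genes 10 were lower and 5 higher, led by the semaphorin receptor PLXND1 at 157, 162 and 149 CPM against 48.6, 53.8 and 50.9 CPM (log2 change -1.61, SE 0.13, adjusted p = 5.4e-08). Lists with shares near the background were p53 targets (2 higher and 4 lower of 22), ribosome biogenesis (3 and 3 of 30, but 16 higher and 1 lower against siControl_2, and 7 higher without library 3 of the double knockdown) and C2H2 zinc finger relatives of ZFX (1 and 2 of 14, where ZFX itself is a fall).

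The series names histone H4 acetylation and RNA polymerase II pausing as its subject, so the genes of these machineries were listed. Of 34 genes of histone H4 acetyltransferase complexes 7 were higher and 3 lower (median 0.08), none of them by 2-fold, and 12 were higher without library 3 of the double knockdown. MBTD1, a TIP60 complex subunit, stood at 24.1, 22.1 and 23.4 CPM in siControl and 38.6, 40.5 and 36.7 CPM in siZFX (log2 change 0.73, SE 0.14, adjusted p = 2.0e-04), and MEAF6, a shared subunit, at 61.5, 59.1 and 58.7 CPM against 40.5, 44.3 and 39 CPM (log2 change -0.53, SE 0.09, adjusted p = 8.9e-05). KAT5, the TIP60 catalytic subunit, changed by 0.14 (SE 0.12, adjusted p = 0.441), and KAT8 and KAT7 were not called. Of 33 pausing and elongation factors 8 were higher and 6 lower (median 0.12), and 14 were higher without library 3 of the double knockdown. The number higher was 5 without siZFX library 3, and the number lower 3 without siControl library 1, siZFX library 1 or siZFX library 2. ELL2, a subunit of super elongation complexes, was at 60.4, 60.8 and 55.1 CPM against 109, 105 and 100.4 CPM (log2 change 0.83, SE 0.08, adjusted p = 2.6e-08), and AFF4, their scaffold, at 189, 186 and 185 CPM against 145, 148 and 164 CPM (log2 change -0.29, SE 0.09, adjusted p = 0.0175), a call lost on leaving out any of 4 of the 6 libraries. NELFE, of the negative elongation factor that holds paused polymerase, fell 1.21-fold (-0.01 log2 and not called against siControl_2), and CDK9 changed by 0.08 (SE 0.08), not called. Of 26 histone deacetylase genes 4 were higher and 5 lower (3 lower without siControl library 1, siControl library 3 or siZFX library 1). HDAC11, the class IV member, made the largest change in that list, from 5.26, 5.6 and 4.14 CPM to 0.885, 0.833 and 0.737 CPM (log2 change -2.61, SE 0.35, adjusted p = 5.8e-06), and it fell in the double knockdown (-2.71) and rose with wtZFX (1.99). With wtZFX 17 of the 34 acetyltransferase genes and 15 of the 33 pausing genes were lower, and 2 of each list higher. Against siControl_2, 13 and 15 were higher and 3 of each lower. Transcript levels do not show acetylation or pausing.

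Genes that fell by at least 1.5-fold had transcripts richer in GC and somewhat longer than all tested genes. The median GC content of their transcripts was 52.1%, against 49.3% over all tested genes and 48.7% over the genes that rose by that much. Median transcript lengths were 1179 bases for falls, 1123.5 for rises and 1014.25 for all tested genes (each gene taken as the median over its transcripts). Greater length was thus shared by the rises. Protein-coding genes made up 86.3% of these falls, 86.9% of the rises and 76.5% of all tested genes, and the part of this was not tested. Along the chromosomes, the share of tested genes lower by at least 1.5-fold was 9.06% on all chromosomes together, 13.6% on chromosome 9, 12.4% on chromosome 22, 12.1% on chromosome 15 and 5.16% on chromosome 19. On chromosome X, which carries ZFX, it was 8.83%. LN-229 is an aneuploid line, and copy number cannot be told from counts.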

How the data were processed

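RNA from 24 libraries was sequenced, of which 6 form the comparison. The deposited counts are whole reads per gene, with STAR and HTSeq and the build GRCh38 named in the submitters' processing notes without versions or settings. The unstranded count column was used. Rows that name no gene were left out of library sizes. Reads assigned to a gene were 78.4% to 80.5% of each of the 6 libraries, the rest being ambiguous, outside genes, multimapping or unmapped.

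All 15 LN-229 libraries were fitted with edgeR 4.0.16 (robust quasi-likelihood test, TMM scaling, filterByExpr, 1 coefficient per group, Benjamini-Hochberg adjustment over all tested genes, adjusted p of 0.05), and the 9 libraries of DKO cells likewise. Every adjusted p is from this test. CPM were computed from the deposited counts over TMM-scaled library totals. Depth is 22246299 to 30159260 counts per library, and low genes are the least precise. Gene names and positions are from GENCODE 29, and promoter sequences from RefSeq on GRCh38.p14.

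Named genes are ZFX, the 15 largest called falls and rises among protein-coding genes with a mean of at least 5 CPM and groups that do not overlap, and up to 6 members of each list by size of change. Some genes that this rule names are not reported here. The members and lists were chosen with earlier results of these data known. Alternatives changed scaling, filter, libraries, strand column, control set and tool (DESeq2 1.42.0).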

Additional observations from a re-analysis of the deposited data

How the results depend on the processing

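The number of genes lower was 3025, and it was within 1.5 times that count under every alternative except the 1.5-fold limit, which left 839 higher and 1603 lower. Fitting only the 6 libraries gave 3775 higher genes, the same libraries with the replicate block 3716, and offsets for GC content and length 3672. With the replicate block on all 15 libraries 2448 genes were higher and 3035 lower. Same-numbered siControl and siZFX libraries did not deviate together (correlations of -0.03, 0.01 and 0.03). Such values show no large shared deviation, but they cannot exclude that same-numbered libraries were handled in pairs. Leaving out 1 library at a time gave 1833 to 1932 higher and 2532 to 2618 lower genes. DESeq2 called 2615 higher and 3149 lower. Leaving library 3 of the double knockdown out of the fit, chosen after seeing the data, gave 3288 higher and 3827 lower.

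Of 2565 log2 changes (135 named genes under 19 alternatives) 2477 kept their direction and side of the threshold, 48 lost the call, 23 gained one and 17 changed sign. With siControl_2 as the control the log2 change was 0.22 for AXL, 0.24 for BCL2L1, 0.079 for CDC6, 0.32 for EGFR, -0.087 for ISG15, -0.11 for MT-CO1 and 0.32 for RRM2. With all 6 control libraries it was 0.073 for AXL, 0.087 for BCL2L1, 0.0050 for CDC6 and 0.13 for RRM2. With GC and length offsets it was 0.080 for AXL, 0.023 for BCL2L1 and 0.040 for CALR, and with upper-quartile factors 0.0043 for CALR. With 1 library left out, the range was -0.043 to 0.012 for CALR and -0.011 to 0.10 for KAT8. Of these genes EGFR and MT-CO1 were called with siControl as the control, and the cause was not tested.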
